A study of Rattus norvegicus with 12 samples.

Results

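In this experiment acute hypobaric hypoxia was added to systemic lipopolysaccharide (LPS) in rats, and the comparison rests on 6 of the 12 arrays of the series: the 3 arrays of the COMB group, which had both stimuli, and the 3 arrays of the LPS group, which had LPS alone. The samples were chosen by their labelled treatment and all genes entered, in both directions. All animals were 8-week-old male Sprague-Dawley rats that were kept without food and water during the experiment. COMB rats had 0.5 mg/kg LPS into the tail vein and then 6 h in a decompression chamber at 405.35 mmHg, the pressure of 5000 m altitude and equal to 11.2% oxygen. LPS rats had the same injection and breathed room air. In the other 6 arrays, HPO rats had the chamber without LPS, and CTL rats had saline and room air. Cells were washed from the right lung by bronchoalveolar lavage, so the RNA is that of bronchoalveolar lavage fluid (BALF) cells, and the RNA of several rats was pooled before each array. The labels of the COMB pools carry 2, 2 and 3 rat numbers and those of the other pools 3, and the pools are called here by those numbers: COMB 2-3, COMB 10-11 and COMB 12-13-14, then LPS 2-3-6, LPS 5-7-11 and LPS 8-9-10. Where values of pools are listed they stand in this order. A pool hides the spread between its rats, LPS reached the lung through the blood and not the airway, and BALF cells are a mixture, so that more cells of a type and more RNA per cell cannot be told apart in any value below. No label says that pools of a group were handled on separate days, and p-values here measure the spread between pools.

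LPS, a component of the outer membrane of gram-negative bacteria, is handed by LPS-binding protein and CD14 to the receptor TLR4, which through NF-κB switches on cytokines, chemokines and the inhibitors that later turn the response down. Low oxygen stabilizes the α subunit of the transcription factor HIF-1, whose targets include glucose transporters, glycolytic enzymes and regulators of growth. Most cells in the lavage of a resting rat lung are alveolar macrophages, which clear surfactant lipid under the control of PPARγ, and neutrophils, lymphocytes and shed airway cells can join them.

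The values are intensities per probe set, and each difference below is on the log2(intensity + 1) scale, COMB minus LPS unless another pair is named. The label of BALF cells held against their defining markers: the summed intensity of 15 alveolar macrophage markers was 46062 to 47883 in COMB pools and 49596 to 56273 in LPS pools, and Cd68, a lysosomal protein of macrophages, read 3943, 4145 and 4243 in COMB and 3811, 4066 and 4037 in LPS pools. A few pools stood apart. By Euclidean distance over the tested probe sets, COMB 2-3 lay 70.3 and 71.1 from the other COMB pools, which were 47.8 apart, against 37.8 to 42.4 between LPS pools and 71.1 to 86.9 between COMB and LPS pools. CTL 5-6-7 was the highest of the 3 CTL pools for 27 of 27 T and NK cell markers, 18 of 19 NF-κB genes and 31 of 34 interferon-stimulated genes, against 3531 of all 12853 genes. It enters the common estimate of the spread and every HPO and interaction value, so the counts of calls there are also given without it. The ratio of 3′ to 5′ control probe sets was 1.08 to 1.25 in COMB and 1.25 to 1.34 in LPS pools for GAPDH, and 4.34 to 5.52 in COMB and 4.95 to 6.32 in LPS pools for β-actin. The part of that ratio in the results was not tested.

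COMB and LPS pools differed in a large number of transcripts. Of 25692 probe sets tested, limma called 3060 (11.9%) at an adjusted p under 0.05, 1707 higher in COMB (6.64%) and 1353 lower (5.27%). Of the calls, 55.8% were thus higher, but this share moved with the scaling, being 41.7% after quantile normalization, 46.3% with arrays centred on their median, and, among scalings chosen after seeing the data, 36.7% with centring on the tested probe sets and 70.5% with scaling to the β-actin controls. The calls numbered 3321 without COMB 2-3, 1957 without COMB 10-11, and 1526, 1810 and 1603 without LPS 2-3-6, LPS 5-7-11 and LPS 8-9-10. With 1 probe set standing for each gene, 1111 of 12853 genes were higher (8.64%) and 648 lower (5.04%). The changes upward were the larger ones. Among called genes the median was 0.85 for those higher and −0.52 for those lower, against 0.01 over all genes. Changes of at least 2-fold were seen in 462 of the higher and 50 of the lower genes, and changes of at least 4-fold in 89 and 3. The 3 COMB values lay wholly above or wholly below the 3 LPS values in 4715 genes (36.7%), so separation alone is common here and is read below only beside the test.

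Chemokines were prominent among the genes that rose. Of 25 measured, 11 (44.0%) rose, against 8.64% of all genes, 14 did not pass the test, and the list median was 1.70. Ccl20 (probe set 1369814_at), which draws CCR6-bearing lymphocytes and dendritic cells, read 1589.9, 1470.1 and 1357 in COMB pools and 233, 211 and 193 in LPS pools. Its values were close together within each group and far apart between them, a 6.91-fold difference (difference 2.79, SE 0.13, adjusted p = 2.3e-06). Ccl2, the monocyte chemoattractant, read 311, 1493 and 1163 in COMB and 25.7, 120.1 and 48.5 in LPS pools, and Ccl5, which attracts T cells, 948, 5044 and 3237 in COMB and 174, 255 and 137 in LPS pools. For both, COMB 2-3 was the lowest of COMB and still above every LPS pool, and the differences were the 2 largest of the 12853 genes, at 3.91 (SE 0.76, adjusted p = 0.0075) for Ccl2 and 3.76 (SE 0.63, adjusted p = 0.0035) for Ccl5. The neutrophil attractant Cxcl1 read 1065, 1479.6 and 1598 in COMB and 216, 245 and 162 in LPS pools (difference 2.73, SE 0.56, adjusted p = 0.0091). Its relative Cxcl3 rose by 3.36 and the macrophage chemokines Ccl3 and Ccl4 by 2.11 and 2.43. Cxcl2, of the same family as Cxcl1, read 1228, 3725 and 2846 in COMB against 305, 449 and 179 in LPS pools, with no overlap, and missed the threshold (difference 3.01, adjusted p = 0.069). It passed without CTL 1-3-4 (adjusted p = 0.043) and without CTL 5-6-7, where Cxcl2 read 2016, against 61.0 and 118 in the other CTL pools (adjusted p = 0.0031), as did 14 chemokines in all. Ccl6, a chemokine of macrophages, read 10415, 9990.5 and 10723 in COMB and 10998, 11302 and 10534 in LPS pools, which overlapped, and did not pass. The number of chemokines called was 8 without LPS 2-3-6 and 10 to 14 without any other single pool.

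**Figure D1:**
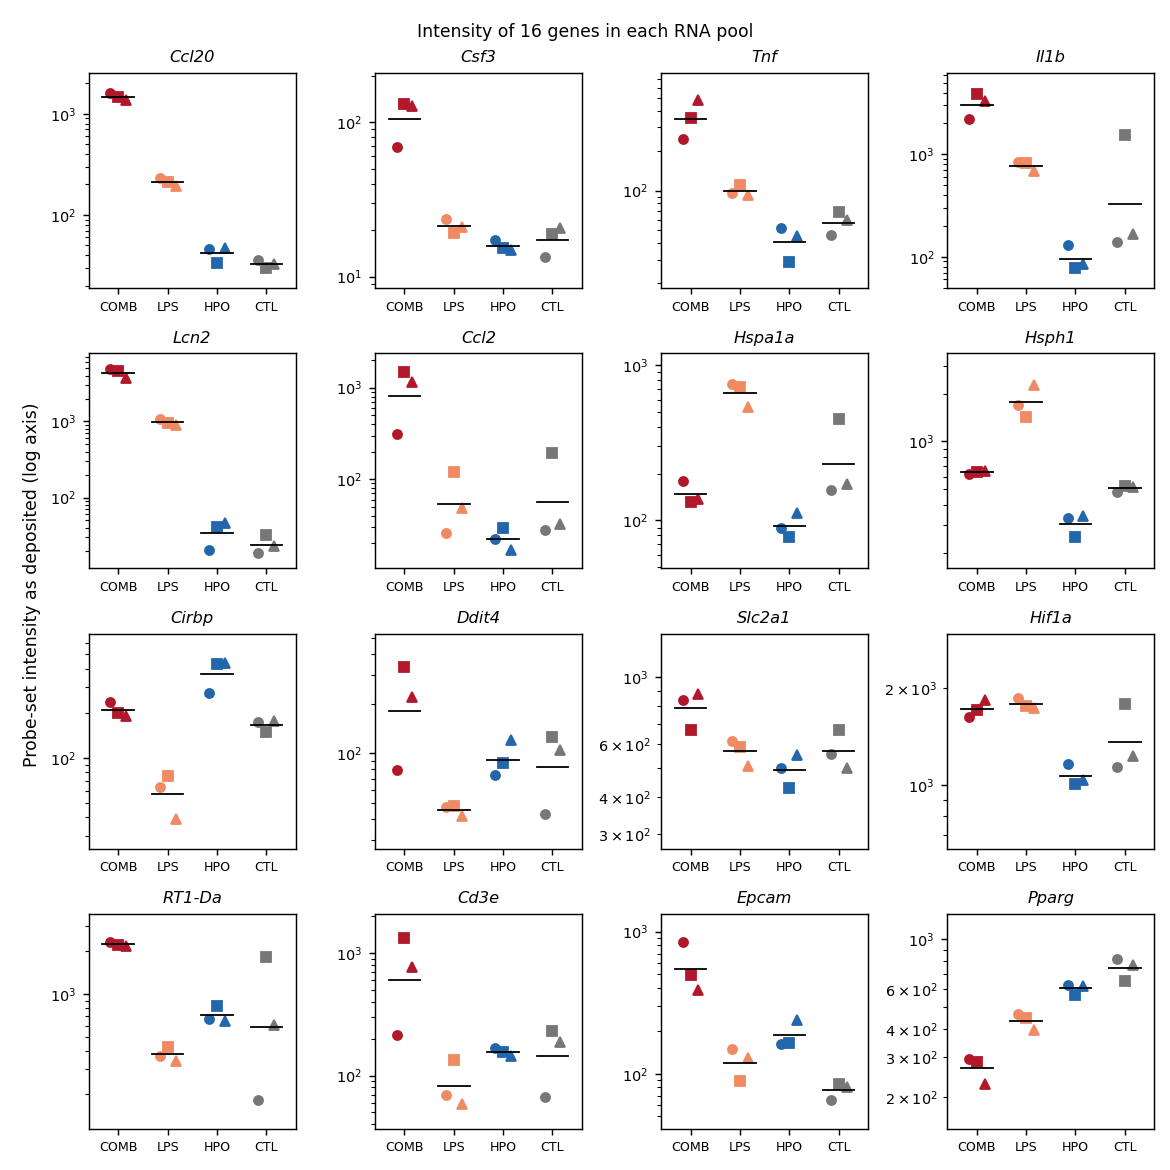
Intensity of 16 genes in each RNA pool, on log axes, for COMB, LPS, HPO and CTL (3 pools each; circles, squares and triangles follow the order of the pools in the labels, and bars are means of the log values). Ccl20, Csf3, Tnf, Il1b, Lcn2 and Ccl2 were higher in every COMB than in every LPS pool, Hspa1a, Hsph1 and Pparg lower, and Hif1a overlapped. The high CTL square in the panels of Il1b, Ccl2, Hspa1a, Hif1a and RT1-Da is CTL 5-6-7.

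Among 21 inflammatory cytokines, 3 rose (14.3%, against 8.64% of all genes), and 18 did not pass the test, with a median of 0.32. The count was 5 without CTL 5-6-7 and 7 without COMB 2-3. Tnf (probe set 1391384_at) read 243, 354 and 485 in COMB and 96.1, 109.5 and 92.2 in LPS pools, a gap of 3.48-fold (difference 1.80, SE 0.25, adjusted p = 0.0016). Il1a, an alarm cytokine released from damaged cells, read 961, 1608 and 1312 in COMB and 261, 277 and 248 in LPS pools (difference 2.27, SE 0.29, adjusted p = 0.0011). Csf3, the growth factor for granulocytes, read 69.4, 131 and 127 in COMB and, faintly, 23.6, 19.3 and 21.1 in LPS pools (difference 2.25, SE 0.22, adjusted p = 0.00031). In each of these COMB 2-3 was the lowest of its group, and no COMB pool overlapped an LPS pool. Il1b, a cytokine cut by caspase-1, read 2206, 3904 and 3301 in COMB and 841, 819 and 682 in LPS pools. Its groups did not overlap, yet the call failed (difference 1.97, SE 0.68, adjusted p = 0.083), with CTL pools at 138, 1553 and 167. Without CTL 5-6-7 its adjusted p was 0.00096, and with COMB and LPS arrays fitted alone 0.0082. Il18, another cytokine cut by caspase-1, read 3586, 3478 and 4159 in COMB and 3816, 3856 and 4302 in LPS pools, overlapping. A probe set that names Il6 alone was not among those analysed here.

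Most TLR receptors and signal transducers were not called. Of 31 measured, 5 rose (16.1%, against 8.64% of all genes) and Tlr8 fell (3.23%, against 5.04%). The median was 0.13, and 3 rose without LPS 2-3-6, LPS 8-9-10 or COMB 10-11. Tlr4 read 500.2, 482 and 594 in COMB and 563, 523 and 487 in LPS pools, which overlapped, and the 95% interval of its difference was −0.25 to 0.25. Tlr2, the receptor of bacterial lipoproteins, read 315, 369 and 354 in COMB and 170.3, 164 and 153 in LPS pools (difference 1.08, SE 0.17, adjusted p = 0.0029). Tlr8, a sensor of single-stranded RNA, fell by 0.77, reading 661, 399 and 482 in COMB and 979, 792 and 823 in LPS pools. Lbp, the protein that hands LPS to CD14, read 168, 132 and 83.1 in COMB and 38.8, 26.9 and 26.5 in LPS pools (difference 1.98, SE 0.24, adjusted p = 0.00088), while Cd14 itself at 1749.5, 2243 and 2963 in COMB and 1375, 1675 and 1177 in LPS pools did not pass (adjusted p = 0.1, and 0.049 without CTL 5-6-7). Among 19 NF-κB subunits, feedback inhibitors and related genes, 10 rose (52.6%), all 19 lay above 0 and the median was 0.76. Of the risers, Birc3, an inhibitor of cell death, rose by 2.03 and Zc3h12a, the nuclease that cuts cytokine transcripts, by 1.61. Nfkbiz rose by 1.09 and Tnfaip3 (A20) by 0.93, whereas Nfkb1 and Rela, which encode subunits, differed by 0.23 and 0.21 and did not pass. Zc3h12a read 331, 272 and 330.2 in COMB and 115, 108 and 81.6 in LPS pools, with little spread in either (SE 0.15, adjusted p = 0.00024). Nfkbia, the classical inhibitor, read 1536, 2715 and 3194 in COMB and 1342, 1590.5 and 1049 in LPS pools, where COMB 2-3 lay within the LPS range, and it did not pass (adjusted p = 0.053, 0.0048 without COMB 2-3 and 0.048 without HPO 3-5-12). Tlr8 lost its call without LPS 2-3-6 (adjusted p = 0.0565), Birc3 lost its call without LPS 2-3-6, LPS 5-7-11, LPS 8-9-10, COMB 10-11 or COMB 12-13-14 (adjusted p = 0.051 to 0.0691), Nfkbiz lost its call without LPS 2-3-6, LPS 8-9-10, COMB 10-11 or COMB 12-13-14 (adjusted p = 0.0547 to 0.09) and Tnfaip3 lost its call without LPS 5-7-11, LPS 8-9-10, COMB 10-11 or COMB 12-13-14 (adjusted p = 0.0504 to 0.0821). The count of 10 NF-κB genes was 14 without COMB 2-3, 3 and 4 without COMB 10-11 and COMB 12-13-14, and 6, 5 and 3 without LPS 2-3-6, LPS 5-7-11 and LPS 8-9-10, and it was 6 with COMB and LPS arrays fitted alone.

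The promoters of 2 chemokines of this group are shown because both hold an NF-κB motif near the start. A motif was counted where GGG, then any 2 bases, then TTTCC or TTCCC stood on either strand of the 300 bases from 250 before to 50 after the start of a gene in RefSeq (build GRCr8), and its bases are in capitals. Such a match was found in 3.53% of all 27457 promoters of that table, in 3.81% of those of genes called higher, in 6 of 20 chemokine promoters (30.0%) and in 7 of 17 promoters of the NF-κB list (41.2%). The Ccl20 promoter lies at chr9:91836909-91837208 on the plus strand, with 2 overlapping matches that begin 90 and 89 bases before the start. That of Cxcl1 lies at chr14:17479272-17479571 on the minus strand, with matches that begin 102 and 84 bases before it. A match describes these letters and is no evidence of binding.
Ccl20: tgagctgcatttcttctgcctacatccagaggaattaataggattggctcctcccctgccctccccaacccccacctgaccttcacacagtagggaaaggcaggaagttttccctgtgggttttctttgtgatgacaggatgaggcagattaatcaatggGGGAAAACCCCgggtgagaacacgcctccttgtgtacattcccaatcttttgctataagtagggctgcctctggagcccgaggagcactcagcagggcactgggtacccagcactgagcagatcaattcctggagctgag
Cxcl1: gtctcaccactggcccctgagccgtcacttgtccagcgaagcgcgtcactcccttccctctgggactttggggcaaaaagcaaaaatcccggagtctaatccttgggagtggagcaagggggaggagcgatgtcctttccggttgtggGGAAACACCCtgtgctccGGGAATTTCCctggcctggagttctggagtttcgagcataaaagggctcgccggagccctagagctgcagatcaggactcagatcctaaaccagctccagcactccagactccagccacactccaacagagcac

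Secreted proteins of the acute phase followed. Of 13, 8 rose (61.5%, against 8.64% of all genes), with a median of 1.80. Lcn2, which takes iron-carrying siderophores from bacteria, read 4960.5, 4546 and 3717 in COMB and 1091, 945 and 888 in LPS pools, a 4.50-fold step (difference 2.17, SE 0.27, adjusted p = 0.00089). It read only 20.5, 40.5 and 46.0 in HPO and 18.5, 31.9 and 23.0 in CTL pools. Saa3, a serum amyloid made in the lung, rose by 1.18, reading 3024, 3798 and 3444 in COMB and 1759.7, 1422 and 1368 in LPS pools, and Hp, which binds free hemoglobin, rose by 1.30. C3, on which all complement pathways converge, read 3311, 2796 and 1818 in COMB and 779.6, 424 and 460.3 in LPS pools (difference 2.26, SE 0.35, adjusted p = 0.0025). It was one of 8 risers among 25 genes of complement and coagulation (median 0.93), with complement factor I (Cfi) at 2.14, the tissue factor F3 at 2.26 and the plasminogen activator Plat at 1.81. F3 starts clotting and Plat starts the removal of clots, and both rose. The count of 8 complement and coagulation genes was 5 without LPS 5-7-11. Epithelial cells also make C3, Lcn2, Pigr and F3, and the summed level of 18 airway secretory markers was 32002 to 45233 in COMB and 19204 to 22213 in LPS pools. Its part in these differences was not tested.

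Most genes that hypoxia is known to induce were not called. Of 36 genes known as hypoxia or HIF targets, 5 were higher in COMB by the test (13.9%, against 8.64% of all genes). Another 2 were lower (5.56%, against 5.04%), and the other 29 were not called. Their median was 0.21, against 0.01 over all genes, and 28 of the 36 lay above 0. Ddit4, a brake on mTORC1, read 79.7, 336 and 219 in COMB and 46.9, 47.8 and 41.9 in LPS pools (difference 1.97, SE 0.47, adjusted p = 0.02), with COMB 2-3 far below the other COMB pools. The nuclear receptor Rora read 26.8, 45.6 and 37.0 in COMB and 11.2, 16.6 and 11.6 in LPS pools (difference 1.40, SE 0.23, adjusted p = 0.0033), and the collagen hydroxylase P4ha2 rose by 0.73. P4ha1, of the same family as P4ha2, moved the other way, reading 207, 233 and 226 in COMB and 334, 352 and 443 in LPS pools (difference −0.75, SE 0.15, adjusted p = 0.0073). The glucose transporter Slc2a1 read 837, 666 and 880.1 in COMB and 614, 585 and 505 in LPS pools, with no overlap, and just missed (adjusted p = 0.055). It passed without CTL 5-6-7, HPO 3-5-12 or COMB 10-11 (adjusted p = 0.036 to 0.047). Bnip3l, a HIF target that acts in mitophagy, differed by 0.24 and did not pass. Hif1a read 1623, 1706 and 1833 in COMB and 1861, 1751 and 1738 in LPS pools, overlapping (95% interval of the difference −0.37 to 0.27), a measure of transcript that does not bear on protein stability. Of 16 glycolytic genes, 4 rose. Hk1, the hexokinase of most tissues, read 182, 317 and 294 in COMB and 118, 150.2 and 130.1 in LPS pools (difference 0.95, SE 0.18, adjusted p = 0.0063), and Tpi1, triosephosphate isomerase, rose by 0.58. Ldha, which makes lactate, read 3020.0, 2640.5 and 3109 in COMB and 2753, 2544 and 2682 in LPS pools and did not pass. Ddit4 lost its call without LPS 2-3-6, LPS 5-7-11, LPS 8-9-10, COMB 10-11 or COMB 12-13-14 (adjusted p = 0.0525 to 0.0684), P4ha2 lost its call without LPS 2-3-6, LPS 5-7-11 or LPS 8-9-10 (adjusted p = 0.0729 to 0.103) and Tpi1 lost its call without LPS 2-3-6, LPS 5-7-11, LPS 8-9-10, COMB 10-11 or COMB 12-13-14 (adjusted p = 0.0578 to 0.0733). The 2 HIF targets that fell became 1 without COMB 12-13-14 or any 1 of the LPS pools, and with COMB and LPS arrays alone. The count of HIF targets rising was 1 without LPS 2-3-6 or LPS 8-9-10 and with COMB and LPS arrays alone, 2 without LPS 5-7-11 or COMB 12-13-14, and 8 without COMB 2-3 or HPO 3-5-12. That of glycolytic genes was 1 without LPS 2-3-6 or COMB 10-11 and 2 without LPS 8-9-10 or COMB 12-13-14.

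**Figure D2:**
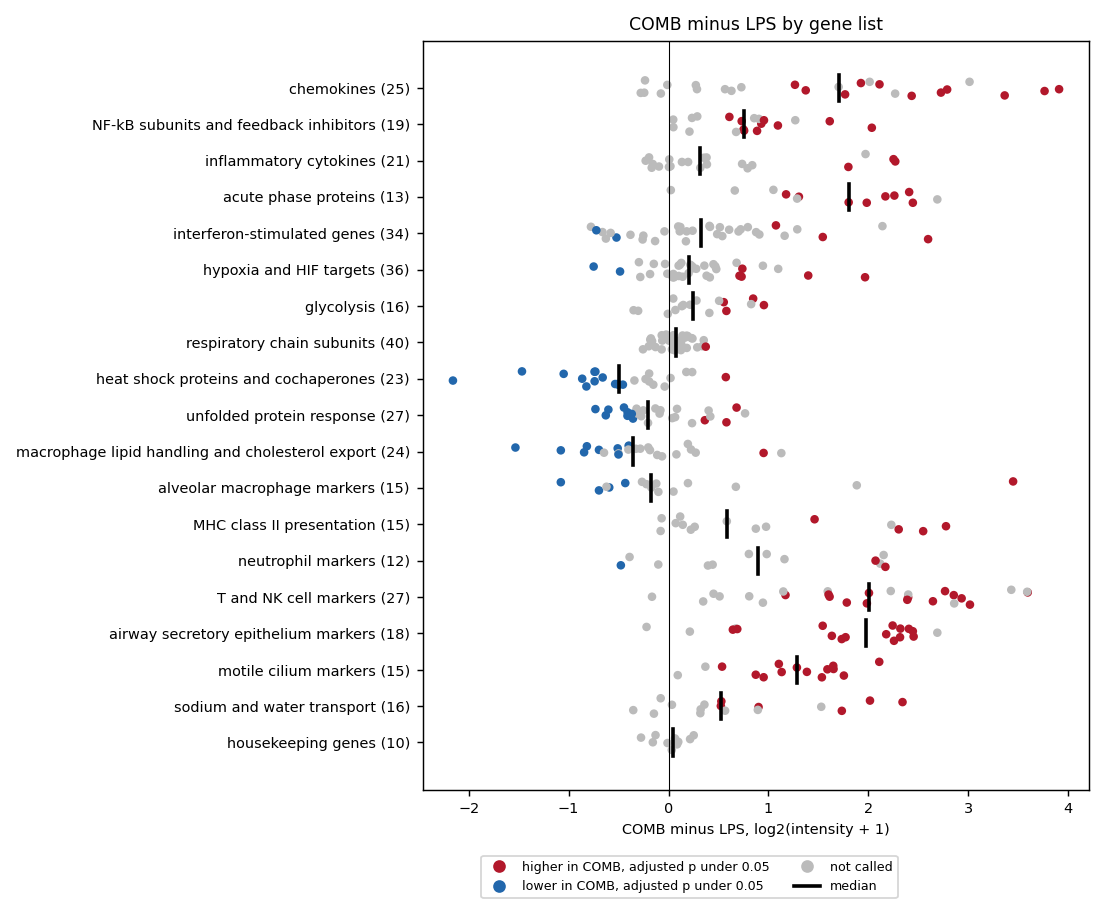
Difference COMB minus LPS in log2(intensity + 1) for each measured gene of 19 lists (number of genes in parentheses), with the list median as a bar. Red points were called higher in COMB, blue points lower and grey points not called; most chemokines, T and NK cell markers, airway and cilium markers lie to the right of 0, and most heat shock and lipid-handling genes to the left.

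Heat shock proteins and their cochaperones were the clearest group on the lower side. Of 23 measured, 13 fell (56.5%), against 5.04% of all genes, Hspa4l rose at low intensity and the median was −0.50. Hspa1a (probe set 1370912_at), the inducible HSP70 that refolds damaged proteins, read 178, 132 and 137 in COMB and 752, 719 and 541 in LPS pools, 4.46-fold lower in COMB (difference −2.16, SE 0.33, adjusted p = 0.0022). Hsph1, an HSP110 that recharges HSP70, read 621, 645 and 654 in COMB and 1707, 1434 and 2263 in LPS pools (difference −1.47, SE 0.16, adjusted p = 0.00056). The 3 COMB values of Hsph1 lay close together and far below every LPS value. Chordc1, which works with HSP90, read 187, 256 and 285 in COMB and 549, 463 and 479 in LPS pools (difference −1.05, SE 0.15, adjusted p = 0.0017). Dnaja1 and Dnajb1, the HSP40 partners of HSP70, fell by 0.86 and 0.73, and Ahsa1 and Stip1, which serve HSP90, by 0.74 and 0.74. Cacybp, which binds the same chaperone system and was outside the list, read 484, 589 and 529 in COMB and 1709, 1325 and 2298 in LPS pools (difference −1.70, SE 0.21, adjusted p = 0.00088). The mitochondrial chaperonins Hspd1 and Hspe1 fell by 0.53 and 0.50. Hsf1, which encodes the regulator of the group, differed by −0.19 and did not pass. The count of 13 was 12 or 13 without any single pool, and Hspa4l lost its call without CTL 8-9-10, LPS 2-3-6, LPS 5-7-11, LPS 8-9-10, HPO 7-8-9, HPO 2-4-11, COMB 2-3 or COMB 10-11 (adjusted p = 0.0515 to 0.131). Without LPS, the list also lay lower with hypoxia, at a median HPO minus CTL of −0.23, with 18 of its 23 genes below 0. Its summed intensity was 13704 to 14289 in COMB, 20136 to 22895 in LPS, 10951 to 13227 in HPO and 13984 to 14583 in CTL pools. By this sum LPS pools were the highest of the 12, and COMB pools overlapped CTL pools.

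Of the 20 promoters of this list in the RefSeq table, 5 held a heat shock element, here 3 alternating units of GAA and TTC with any 2 bases between them, on either strand, against 0.736% of all promoters and 1.45% of those of genes called lower. The promoters of Hsph1 and Chordc1 are shown with it in capitals. The first lies at chr12:10427118-10427417 on the plus strand, with the element 36 bases before the start. The second lies at chr8:23650571-23650870 on the plus strand, with 3 overlapping elements from 11 to 21 bases after it. No match stood in this window in the promoters of Hspa1a or Dnajb1.
Hsph1: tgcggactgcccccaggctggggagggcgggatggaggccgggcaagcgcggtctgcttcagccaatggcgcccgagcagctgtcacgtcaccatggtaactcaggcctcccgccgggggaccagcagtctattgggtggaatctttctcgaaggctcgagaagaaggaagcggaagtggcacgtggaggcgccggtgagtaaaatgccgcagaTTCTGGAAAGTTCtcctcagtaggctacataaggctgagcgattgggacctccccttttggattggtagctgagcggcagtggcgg
Chordc1: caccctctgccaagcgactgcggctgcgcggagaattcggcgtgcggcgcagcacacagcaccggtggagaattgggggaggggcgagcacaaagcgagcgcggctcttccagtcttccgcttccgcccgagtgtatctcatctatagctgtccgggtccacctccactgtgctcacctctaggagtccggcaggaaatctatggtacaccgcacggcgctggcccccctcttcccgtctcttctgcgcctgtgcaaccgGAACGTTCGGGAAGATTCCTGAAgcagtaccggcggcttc

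Some genes of protein folding in the endoplasmic reticulum were also lower in COMB than in LPS pools. Of 27 genes of the unfolded protein response, 8 fell (29.6%, against 5.04% of all genes), with a median of −0.21. Another 3 rose (11.1%, near the 8.64% of all genes). Hspa5 (BiP), its central chaperone, read 1735, 1777 and 1847 in COMB and 2736, 2931 and 3255 in LPS pools (difference −0.73, SE 0.10, adjusted p = 0.0017). Hsp90b1 fell by 0.60 and Dnajb9 by 0.63. The summed intensity of the list was 24213 to 25019 in COMB, 28589 to 29945 in LPS, 17751 to 19663 in HPO and 21350 to 21663 in CTL pools. By this sum COMB pools lay below LPS pools and above CTL pools. The risers belong to the arm of the transcription factor ATF4: Atf4 itself rose by 0.36, reading 2646, 2551 and 2604 in COMB and 2048, 2024 and 1991 in LPS pools, and its target Trib3 by 0.58. The number falling was 4 without LPS 2-3-6 and 5 without LPS 8-9-10 or COMB 10-11, it was 3 with COMB and LPS arrays alone, and the number rising was 1 without LPS 2-3-6, LPS 5-7-11 or COMB 10-11. All 3 measured genes of cold-inducible and related RNA-binding proteins rose. Cirbp (probe set 1385904_at), which cooling induces, read 239.9, 201 and 193 in COMB and 64.0, 75.5 and 38.8 in LPS pools, 3.62-fold higher (difference 1.86, SE 0.23, adjusted p = 0.00091), and all 3 of its probe sets were called in that direction. It read 275, 428 and 436 in HPO and 175, 149 and 178 in CTL pools, so that the 2 groups with hypoxia lay above their own counterparts, and LPS pools were the lowest of the 12. Rbm3, of the same family, read 2176, 2110.1 and 2283 in COMB and 1494, 1401 and 1566 in LPS pools (difference 0.56, SE 0.13, adjusted p = 0.016). Atf4 lost its call without LPS 2-3-6, LPS 5-7-11 or LPS 8-9-10 (adjusted p = 0.0507 to 0.0584), Trib3 lost its call without LPS 8-9-10 or COMB 10-11 (adjusted p = 0.0806 to 0.0807) and Rbm3 lost its call without LPS 2-3-6 or LPS 5-7-11 (adjusted p = 0.0534 to 0.0601). Body temperature was not given by the labels.

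Of 24 genes of lipid handling in macrophages, 8 fell (33.3%, against 5.04% of all genes), or 5 without LPS 5-7-11. Another 1 rose (4.17%, against 8.64%) and 15 did not pass, with a list median of −0.36. Pparg, which encodes the regulator of surfactant breakdown in alveolar macrophages, read 296, 285 and 229.6 in COMB and 465, 449.6 and 397 in LPS pools (difference −0.70, SE 0.12, adjusted p = 0.0046), with 629, 566 and 624 in HPO and 819, 651 and 772 in CTL pools. The order CTL, HPO, LPS, COMB from high to low held for the group means of Pparg. Cidec, a protein of lipid droplets, read 102, 66.9 and 57.8 in COMB and 251, 193 and 202 in LPS pools (difference −1.53, SE 0.21, adjusted p = 0.0015) and had the same order. The fatty acid carrier Fabp4 fell by 1.08, Nr1h3, the oxysterol receptor LXRα, by 0.85, and the scavenger receptor Cd36 by 0.82. Cyp27a1, which makes oxysterols, was the riser (0.95). Fabp4 lost its call without LPS 5-7-11 or COMB 10-11 (adjusted p = 0.066 to 0.0694). Of 15 alveolar macrophage markers 4 fell (26.7%), of which Pparg and Fabp4 are also on the lipid list (2 fell without LPS 5-7-11 or COMB 10-11), 10 did not pass, among them Cd68 at 0.05, and the median was −0.17. The summed level of these markers was 46062 to 47883 in COMB and 49596 to 56273 in LPS pools, without overlap, and its part in the lipid gene differences was not tested. Car4, a carbonic anhydrase on that marker list, was its one riser, reading 64.9, 744 and 309 in COMB and 17.4, 27.9 and 21.0 in LPS pools (difference 3.45, SE 0.74, adjusted p = 0.011).

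The deepest fall among the 12853 genes was in Lap3 (probe set 1376579_at), a leucine aminopeptidase of the cytosol. It read 118, 125 and 116 in COMB, 561, 472 and 629 in LPS, 412, 427 and 238 in HPO and 408, 491 and 529 in CTL pools. COMB pools were the lowest, 4.58-fold below LPS pools (difference −2.20, SE 0.20, adjusted p = 0.00024), and HPO 3-5-12, at 238, was the next lowest. Slbp, which binds the stem-loop of histone transcripts, read 71.2, 90.3 and 63.1 in COMB and 403, 234 and 357 in LPS pools (difference −2.11, SE 0.33, adjusted p = 0.0025). Hells, a chromatin remodeler of dividing cells, fell by 1.21, and Tmem33, a membrane protein of the endoplasmic reticulum, by 1.22. Proliferation genes as a list did not follow. Of 29 genes of the cell cycle and DNA replication 1 was called (3.45%, against 13.7% of all genes), and the median was −0.02. The sign of that median changed with scaling to β-actin and without LPS 2-3-6, COMB 2-3 or COMB 12-13-14.

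Transcripts of T and NK cells were higher in COMB, unevenly. Of 27 markers, 14 rose (51.9%, against 8.64% of all genes), with a median of 2.01. Cd3e, a subunit of the T cell receptor complex, read 213, 1319 and 762 in COMB and 69.9, 134 and 58.3 in LPS pools (difference 2.86, SE 0.59, adjusted p = 0.01). COMB 2-3 was the lowest of COMB for 26 of the 27 genes. The summed intensity of the list was 2429, 13022 and 10956 in COMB pools and 1396 to 1969 in LPS pools, and it was 1677 to 2166 in HPO and 1244 to 5332 in CTL pools. Of these markers 24 rose without COMB 2-3, but 4 and 6 without the other COMB pools, 5, 10 and 4 without LPS 2-3-6, LPS 5-7-11 and LPS 8-9-10, and 5 with COMB and LPS arrays fitted alone. Gzmb, a killing enzyme of cytotoxic cells, read 98.1, 1440.1 and 1840.3 in COMB and 42.5, 54.6 and 61.2 in LPS pools and did not pass (adjusted p = 0.096, 0.043 without CTL 5-6-7 and 0.018 without COMB 2-3). Of 15 genes of MHC class II presentation 4 rose (26.7%) and 11 did not pass, with a median of 0.58. RT1-Da, a class II chain, read 2305, 2209 and 2186 in COMB and 372, 429.8 and 345 in LPS pools (difference 2.55, SE 0.56, adjusted p = 0.014), and Cd74, the invariant chain that guides class II molecules, 3129, 3837 and 3769.8 in COMB and 703, 796 and 669.9 in LPS pools (difference 2.30, SE 0.46, adjusted p = 0.0079). Ciita, the regulator of these genes, rose by 1.46. The COMB values of RT1-Da and Cd74 lay closer together than those of Cd3e. RT1-Da lost its call without LPS 8-9-10 (adjusted p = 0.0514). Among 12 neutrophil markers, Lcn2 and Mmp9 rose (16.7%, against 8.64% of all genes) and 9 did not pass. Ncf1, a subunit of the phagocyte oxidase, fell by 0.48 and was the only faller (8.33%, against 5.04% of all genes). The risers were 4 without CTL 5-6-7, and Ncf1 lost its call without CTL 8-9-10, LPS 2-3-6, LPS 5-7-11, LPS 8-9-10, HPO 7-8-9, COMB 2-3, COMB 10-11 or COMB 12-13-14 (adjusted p = 0.0552 to 0.12). Mmp9, a matrix protease stored in neutrophil granules, rose by 2.07, reading 57.2, 93.8 and 88.7 in COMB and 13.2, 22.1 and 19.3 in LPS pools. S100a9, the main cytosolic protein of neutrophils, read 3326, 4403 and 1819.8 in COMB and 513, 576 and 1098 in LPS pools, with no overlap, and did not pass (adjusted p = 0.28, and 0.022 without CTL 5-6-7). The summed neutrophil list was 7888 to 14689 in COMB and 3050 to 3713 in LPS pools, and without Lcn2, which epithelial cells also make, it was 4172 to 10143 in COMB and 1959 to 2825 in LPS pools. Its part in the chemokine and Il1b differences was not tested.

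**Figure D3:**
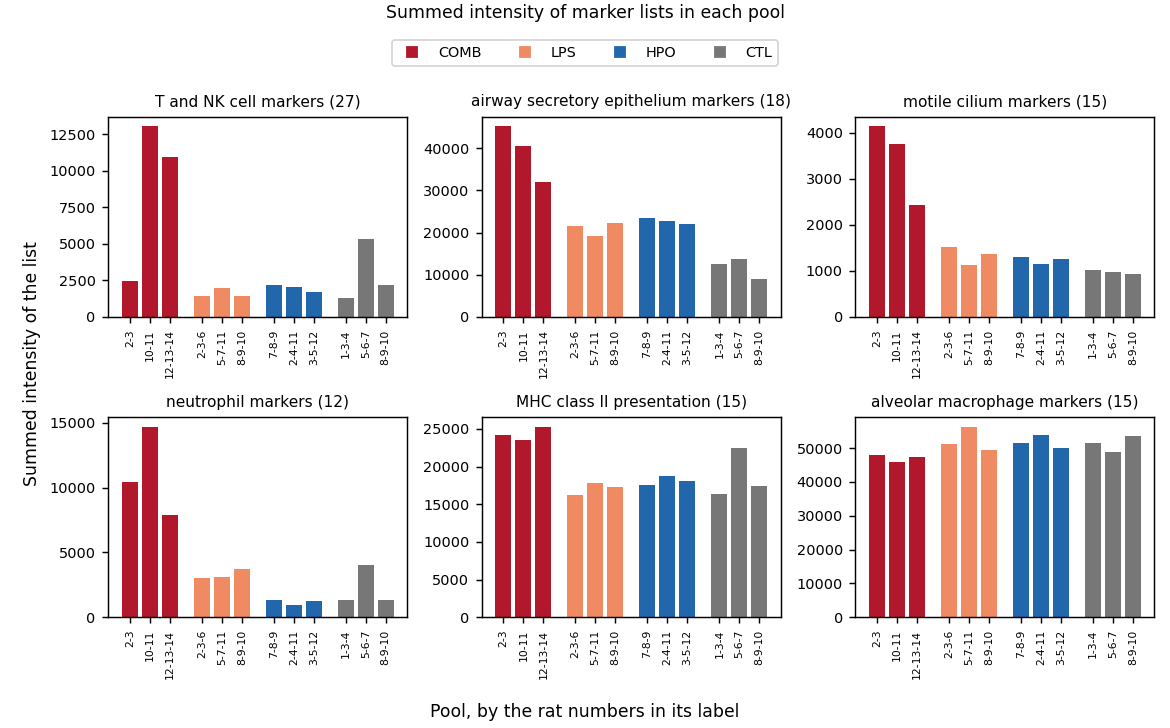
Summed intensity of 6 marker lists (number of genes in parentheses) in each of the 12 pools, named by the rat numbers of their labels. COMB pools held the highest sums of airway secretory, motile cilium and neutrophil markers; T and NK markers were high in 2 of the 3 COMB pools, and the alveolar macrophage sums of COMB pools, 46062 to 47883, were the lowest of the 12.

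Airway epithelial transcripts were higher in all COMB pools. Of 18 secretory markers 14 rose (77.8%, median 1.98), and of 15 genes of motile cilia 13 rose (86.7%, median 1.28). Muc5b, the main gel-forming mucin of the airway, read 2828, 2429.9 and 1543 in COMB and 642, 353 and 426 in LPS pools (difference 2.26, SE 0.33, adjusted p = 0.0018), and Epcam, an adhesion protein of epithelial cells, 845, 496 and 385 in COMB and 149, 88.3 and 129 in LPS pools (difference 2.18, SE 0.27, adjusted p = 0.00098). Foxj1, the regulator of ciliogenesis, rose by 1.28 and Tekt1, a protein of ciliary microtubules, by 2.11. COMB 12-13-14 was the lowest of COMB in 16 of the 18 secretory and 15 of the 15 ciliary genes, whereas COMB 2-3 was the lowest for T and NK cell markers, and none of the airway sums of COMB pools reached down to the LPS range. Scgb1a1, the most abundant secretory protein of club cells, read 10726, 9676 and 9488 in COMB and 8478, 8512 and 8755 in LPS pools, without overlap, and did not pass (0.21, adjusted p = 0.38). Genes that move salt and water across epithelia rose in part, 6 of 16 (37.5%, against 8.64% of all genes). Aqp4, a water channel, read 902, 479 and 261 in COMB and 139, 62.2 and 97.2 in LPS pools (difference 2.34, SE 0.50, adjusted p = 0.011), and Atp1b1, a subunit of the sodium pump, 1593, 1197 and 844 in COMB and 394, 288 and 383 in LPS pools (difference 1.73, SE 0.21, adjusted p = 0.00079). Scnn1a, the α subunit of the epithelial sodium channel, rose by 0.90 and lost its call without LPS 2-3-6, LPS 5-7-11, LPS 8-9-10, COMB 2-3 or COMB 10-11 (adjusted p = 0.0503 to 0.102). The count of 6 was 3 without LPS 2-3-6, LPS 8-9-10 or COMB 2-3 and with COMB and LPS arrays alone, and 4 without LPS 5-7-11. Of 18 epithelial junction genes 9 rose, with the claudin Cldn3 at 1.90 and E-cadherin, Cdh1, at 1.72, and 6 did so without LPS 5-7-11 or LPS 8-9-10. The secretory list also lay higher in HPO than in CTL pools, with sums of 22134 to 23389 in HPO and 8848 to 13759 in CTL pools and a median difference of 1.19.

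Antioxidant genes mostly rose where they changed. Of 30 glutathione and NRF2 targets 9 rose (30.0%, against 8.64% of all genes) and 1 fell (3.33%, against 5.04%). Gstp1, a glutathione transferase, read 1031, 1109.7 and 782 in COMB and 302, 299 and 289.5 in LPS pools (difference 1.70, SE 0.16, adjusted p = 0.00025), and Nfe2l2, which encodes NRF2, read 746, 892 and 828 in COMB and 525, 468 and 579 in LPS pools (difference 0.65, SE 0.13, adjusted p = 0.0088). Slc7a11, which imports cystine, rose by 1.46 and the thioredoxin reductase Txnrd1 by 0.75. Catalase (Cat) was the one that fell, reading 1299.7, 1286 and 921 in COMB and 1849, 1905 and 1616 in LPS pools (difference −0.63, SE 0.13, adjusted p = 0.01). Hmox1, heme oxygenase-1, read 1314, 1274 and 1217 in COMB and 1677, 1485 and 1517 in LPS pools, lower in COMB with no overlap, and did not pass (adjusted p = 0.11, and 0.047 without HPO 3-5-12). The count of 9 was 6 without COMB 10-11 or any 1 of the LPS pools. Duox2, the hydrogen peroxide-producing oxidase of airway epithelium, was outside that list and was among the largest rises of any gene, reading 587, 494 and 208 in COMB and 67.2, 23.3 and 29.2 in LPS pools (difference 3.42, SE 0.50, adjusted p = 0.0019).

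Without LPS, far fewer probe sets were called. In HPO against CTL pools limma called 9 of 25692 probe sets (0.035%), which are 4 genes (0.0311%), Farp1, Fmo2, Sult1a1 and Wfdc2, all higher in HPO. The 9 became 120 without COMB 2-3, 22 without COMB 12-13-14, 12 without HPO 7-8-9, 1 to 7 without CTL 1-3-4, COMB 10-11 or any 1 of the LPS pools, and 0 without CTL 5-6-7, CTL 8-9-10, HPO 2-4-11 or HPO 3-5-12, where limma still gave 1811 to 2861 probe sets with an unadjusted p under 0.05. Of the genes called higher in COMB than LPS, 76.1% were above 0 in HPO minus CTL, with a median of 0.18, and of those called lower 82.7% were below 0, with a median of −0.12. Over all genes 48.8% were above 0. The 2 comparisons share no array, and over 25692 probe sets, which are not independent, Pearson's r between them was 0.382 and Spearman's rho 0.381. A direct test of whether the difference with hypoxia was itself different after LPS, the interaction, called 35 probe sets (0.136%), or 23 genes, 20 above 0. All 23 were among the genes called in COMB against LPS. They included Ccl20, whose difference was 2.79 after LPS and 0.34 without it (interaction 2.45, adjusted p = 0.00055), Il1a (2.27 and −0.78, interaction 3.05), Csf3 (2.25 and −0.13), Tnf (1.80 and −0.48), Tlr2 (1.08 and −0.63) and Zc3h12a (1.61 and −0.21). On the lower side Lap3 fell by 2.20 after LPS and differed by −0.45 without it. Single pools moved several of the values without LPS. Without CTL 5-6-7 they were −0.38 for Il1a, −0.40 for Tlr2, −0.10 for Zc3h12a and −0.07 for Csf3, without HPO 2-4-11 that of Tnf was −0.24 and without HPO 3-5-12 that of Lap3 was −0.17, while Csf3 ran between −0.30 and −0.004 and Hs3st1 between −0.03 and 0.06 over the 6 HPO and CTL pools left out in turn. The 35 probe sets of the interaction became 643 without COMB 2-3, 222 without COMB 12-13-14, 62 without HPO 3-5-12, 14 without COMB 10-11, 9 without CTL 5-6-7 and 2 to 6 without CTL 8-9-10, HPO 7-8-9, HPO 2-4-11 or any 1 of the LPS pools. Ccl20 and Hs3st1, a sulfotransferase of heparan sulfate (1.74 after LPS and 0.02 without it), passed whichever of the 12 pools was left out, with adjusted p of at most 0.0045 and 0.0049. Zc3h12a passed in 10 of these 12 fits, Tlr2 in 6, Il1a and Csf3 in 5, Tnf in 4 and Lap3 in 3, with adjusted p of up to 0.062, 0.095, 0.085, 0.083, 0.13 and 0.13. Hspa1a, Hsph1, Cirbp, Muc5b and Epcam were not among the calls. Their differences with hypoxia were −1.32, −0.73, 1.15, 1.79 and 1.27 without LPS, each in the direction seen after LPS, also without any 1 of the HPO or CTL pools. That of Hspa1a was −0.83 without CTL 5-6-7, and a missed threshold does not show that the differences were equal.

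**Figure D4:**
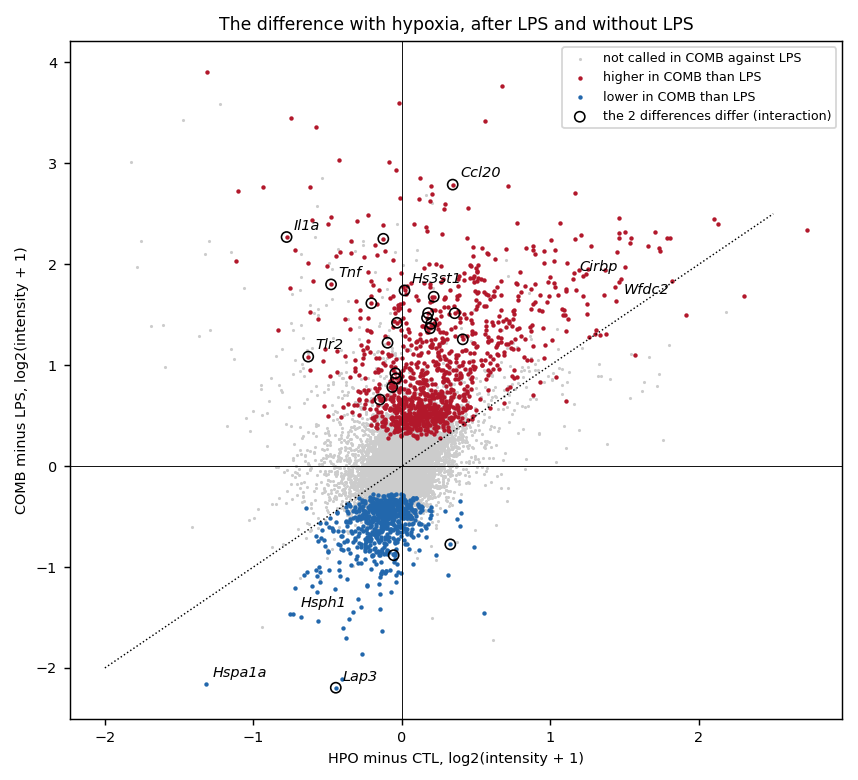
Each gene's difference with hypoxia after LPS (COMB minus LPS, vertical) against that without LPS (HPO minus CTL, horizontal), both in log2(intensity + 1). Red and blue genes were called higher and lower in COMB than LPS, circles mark the 23 genes of the interaction, and the dotted line marks equal differences; Ccl20, Il1a, Tnf and Lap3 lie far from it.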

How the data were processed

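RNA of pooled rats was hybridised to 12 Affymetrix rat arrays with 1 colour, 3 for each of COMB, LPS, HPO and CTL. The authors deposited normalised intensity per probe set. Their methods name MAS 3.0, the Affymetrix Transcriptome Analysis Console, R and GeneSpring, and a filter at the 20th percentile. That filter was not applied to the deposited values, and how arrays were normalised is not given in the sources used here. Array medians were 32.72 to 35.61. The pseudocount compresses differences at low intensity, and precision is limited by the few arrays per group.

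Of 31099 probe sets, 57 controls were left out, and the 25692 above their array's 20th percentile in at least 3 arrays were tested. From deposited intensities, log2(intensity + 1) values of all 12 arrays were fitted by group with limma 3.58.1 in R 4.3.3 (eBayes, with data.table version 1.17.8, 8 residual and 3.94 prior degrees of freedom, two-sided), with Benjamini-Hochberg adjustment over all tested probe sets and a threshold of 0.05. Comparisons were COMB minus LPS, HPO minus CTL and their difference. The platform annotation names 1 gene for 20832 probe sets, several for 436 and none for 9831, and 20764 of the first matched a RefSeq gene. The probe set with the highest mean stood for each of 12853 genes. Python 3.11.15, pandas 2.3.3 and matplotlib 3.10.9 made summaries and plots, and the fits were tested on simulated data.

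The groups and gene lists were chosen with earlier results of these data known. Named were the 20 highest and 20 lowest called genes that changed at least 2-fold without overlap of the groups, genes the study names, and of each list up to 4 called genes per direction with the largest change and up to 2 uncalled with the highest mean. Not all such genes are described. Ahsa1, Ccl4, Cd68, Cxcl2, Dnajb1, Epcam, Farp1, Fmo2, Foxj1, Hp, Hsf1, Hspd1, Hspe1, Muc5b, Nfe2l2, Nfkb1, Plat, Rela, Saa3, Slc2a1, Stip1, Sult1a1, Tnfaip3, Txnrd1 and Wfdc2, and the genes of the interaction, were chosen outside this rule, after their values were seen. Alternatives were quantile normalization, median centring, a pseudocount of 16, filters, array weights, weights by number of rats, a trended robust fit, the COMB and LPS arrays alone, the methods' t-test and leaving out each pool.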

Additional observations from a re-analysis of the deposited data

Results flagged for a closer look

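The interaction, a test of whether the difference with hypoxia after LPS (COMB minus LPS) differed from that without LPS (HPO minus CTL), called 35 probe sets, or 23 genes, and these are the results that a reader may want to look at again. The gene with the widest gap was Il1a, at 3.05 on the log2 scale. Ccl20 stood at 2.45, Csf3 at 2.38, Tnf at 2.28, the nuclease Zc3h12a at 1.82, Hs3st1 at 1.72 and Tlr2 at 1.72. Ptpn18 (1.46) is a tyrosine phosphatase, Fam107a (1.45) binds actin, Kcne3 (1.34) is a subunit of potassium channels, Ezr (1.32) joins membranes to the cytoskeleton, and Parm1 stood at 1.30. Foxp1 (1.21) is a transcription factor, Terf2ip (1.16) binds telomeres, and Liat1 stood at 1.18, Tp53i11 at 0.96 and Dynlt1, a dynein light chain, at 0.91. Crb3, of epithelial polarity, stood at 0.85, H6pd, a dehydrogenase of the endoplasmic reticulum, at 0.85 and Slc20a1, a phosphate carrier, at 0.81. Lap3 (−1.75), Zbtb34 (−1.10) and Nat1 (−0.83) were on the other side, with a COMB minus LPS difference below that of HPO minus CTL. Ccl20 and Hs3st1 passed whichever pool was left out, and the other 21 genes lost their call without at least 2 of the 12 pools. The T and NK cell and airway markers that differed between pools were not adjusted for in these fits, and their part in the 23 genes was not tested.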

How the results depend on the processing

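No paired analysis was possible because the rat numbers that the labels give to COMB and LPS pools overlap only in part and no label says that a number marks the same animal, litter or day in both groups. For COMB against LPS, 3060 probe sets were called, and 4635 with array weights, 1734 with the COMB and LPS arrays alone, 1878 with 1 probe set per gene (which tests fewer features), 760 with a 2-fold minimum added, 5843 by the methods' t-test unadjusted and 14 by that test after Benjamini-Hochberg adjustment. With 1 pool left out the count ran from 1526 to 3868, and under the other alternatives it stayed within 1.5 times. For the interaction, the 35 probe sets became 83 with quantile normalization, 78 with a pseudocount of 16, 56 with a filter at the 50th percentile, 2116 with array weights, 114 with a trended and robust fit and 2 to 643 with 1 pool left out, and, under scalings chosen after seeing the data, 53 with arrays centred on tested probe sets and 5 with scaling to β-actin. For HPO against CTL, the 9 probe sets became 5 with a pseudocount of 16, 14 with a filter at the 50th percentile, 3576 with array weights, 21 with weights by number of rats, 14 with a trended and robust fit, 1 with 1 probe set per gene, 44 with β-actin scaling and 0 to 120 with 1 pool left out, and the lowest fits still had 1811 probe sets at an unadjusted p under 0.05. The cause of these moves was not tested. Among the genes named that did not pass, Tlr4 changed sign to 0.026 with weights by number of rats and 0.057 with β-actin scaling, and ran from −0.092 to 0.059 with a pool left out, Hif1a changed sign to 0.004 with β-actin scaling and Cd68 to −0.031 with centring on tested probe sets. No called gene named here changed sign in any of these fits. Fitting COMB and LPS arrays alone, with fewer degrees of freedom, ended the call of 9 of the 108 named genes that were called: Cat, Ddit4, Hspa4l, P4ha2, Scnn1a, Sult1a1, Tlr8, Tnfaip3 and Trib3 (adjusted p = 0.052 to 0.12). The 3 pools a group and the dim signal of some probe sets limit all counts.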

Other observations

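Interferon-stimulated genes were uneven between COMB pools, and few were called against LPS pools. Of 34 measured, 3 rose (8.82%) and 2 fell (5.88%), near the 8.64% and 5.04% of all genes, with a median of 0.33. The list summed to 19356, 31597 and 31686 in COMB and 19191 to 23466 in LPS pools. COMB 2-3 was the lowest of COMB for 27 of the 34 genes. Without COMB 2-3 the rising genes numbered 7 and without CTL 5-6-7 they numbered 5, and 1 fell without LPS 2-3-6, LPS 5-7-11 or COMB 10-11. The largest rise was in Ubd, a ubiquitin-like protein that marks proteins for the proteasome, which read 518, 2984 and 1532 in COMB and 208, 206 and 246 in LPS pools (difference 2.60, SE 0.50, adjusted p = 0.0068). Isg20, an exonuclease that degrades viral RNA, read 336, 445 and 483 in COMB and 159, 124 and 145 in LPS pools (difference 1.54, SE 0.24, adjusted p = 0.0027). Bst2 (tetherin), which holds budding viruses at the cell surface, read 2306, 2451 and 2060.1 in COMB and 4065, 3565 and 3614 in LPS pools, so that it lay lower in every COMB pool (difference −0.72, SE 0.12, adjusted p = 0.0042).

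Of 15 clock genes 3 rose (20.0%, against 8.64% of all genes), or 1 without LPS 2-3-6 or LPS 8-9-10, and 12 did not pass, with a median of 0.20. One of the 3 was Dbp, an output factor that follows the circadian clock. Dbp read 83.3, 66.1 and 97.5 in COMB and 38.4, 41.3 and 43.5 in LPS pools (difference 0.97, SE 0.15, adjusted p = 0.0023), with 74.6, 69.3 and 70.3 in HPO and 61.4, 63.4 and 84.1 in CTL pools. The hour of lavage was not given by the labels.

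Genes of lipid mediators moved in both directions, with Hpgds, the prostaglandin D synthase of immune cells, at 318, 454 and 111 in COMB and 39.0, 36.5 and 38.8 in LPS pools (difference 2.70, SE 0.37, adjusted p = 0.0015), and Alox5, which starts leukotriene synthesis, at 474, 485 and 383 in COMB and 952, 885 and 794 in LPS pools (difference −0.97, SE 0.15, adjusted p = 0.0022). Of 12 surfactant and alveolar type 2 cell genes, 4 rose (33.3%, against 8.64% of all genes), or 2 without LPS 8-9-10 or COMB 10-11. Another 1 fell (8.33%, against 5.04% of all genes). Sftpd, surfactant protein D, rose by 1.51, reading 1292, 785 and 648 in COMB and 362, 245 and 317 in LPS pools. Among 40 respiratory chain subunits 1 was called (2.5%, against 13.7% of all genes), and their median was 0.07. The medians were 0.15 for 17 ribosomal proteins, 0.05 for 10 housekeeping genes and −0.06 for 11 markers of recruited monocytes. Of these near-0 medians, those of the respiratory chain and housekeeping lists changed sign with centring on tested probe sets, and that of the monocyte list without LPS 5-7-11 or COMB 2-3.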
